A study of Homo sapiens with 2 samples.

Results

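The cells described here were chosen by their level of replication histone transcripts in single-cell RNA-Seq of a pair of prostate carcinoma lines. In each library, the UMIs (unique molecular identifiers, each marking 1 captured RNA molecule) of HIST1H1B, HIST1H4C, HIST1H1D and HIST1H1E were summed per cell and divided by the UMIs of that cell, and the 10% of cells with the highest value were taken, with ties kept in barcode order. This gave 370 of the 3700 cells, the same number from each library. They are called histone-high cells below and are set against the other cells of their own library. Since histone transcripts selected the cells, every gene whose symbol starts with HIST was left out of the comparisons, and histone values appear only to describe the choice of cells.

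The study profiled LNCaP, an androgen-dependent line grown from a lymph node metastasis of prostate carcinoma, and strains derived from it. LNCaP_C4-2B is a castration-resistant strain of that lineage, and LNCaP_FGC is the standard LNCaP subline. Both lines were cultured untreated in RPMI1640 with serum and antibiotic, and 1 library of polyadenylated 3′ ends was made from each. Each library held 1850 cells after the authors had drawn equal numbers of cells and thinned the counts to 1 common mean, so the totals of 35149989 UMIs in LNCaP_C4-2B and 35150013 UMIs in LNCaP_FGC say nothing of RNA content. The libraries carry different batch labels, so a difference between the lines cannot be told apart from one between batches, and with 1 library per line no test across cells was run.

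Replication-dependent histone genes are switched on as cells enter S phase, the part of the cell cycle in which DNA is copied, so that new chromatin can be packed onto the new DNA. Their transcripts mostly end in a stem-loop in place of a poly(A) tail and are degraded when replication ends, so a poly(A)-primed library catches them only in part. E2F transcription factors drive many other genes of replication onset, whereas genes of G2 and mitosis are mostly held back by the DREAM complex and switched on later through B-MYB and FOXM1.

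The rule's values chose the cells and are given as a description only. In LNCaP_C4-2B, the histone-high cells had a median of 6660 CPM of histone UMIs (scaled to all UMIs of the cell), the highest 9805, and the other cells a median of 564.9. In LNCaP_FGC, they had a median of 5030, the highest 9345, and the other cells a median of 348.9. HIST1H4C supplied 80.4% of these UMIs in LNCaP_C4-2B and 77.7% in LNCaP_FGC, and HIST1H1D was listed with 0 UMIs in both. The last cell inside the limit stood at 5690 and the first outside at 5689.9 in LNCaP_C4-2B, against 3677 inside and 3667 outside in LNCaP_FGC. The plot of histone level by rank shows no gap at either limit, which a fixed number of cells set.

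**Figure D1:**
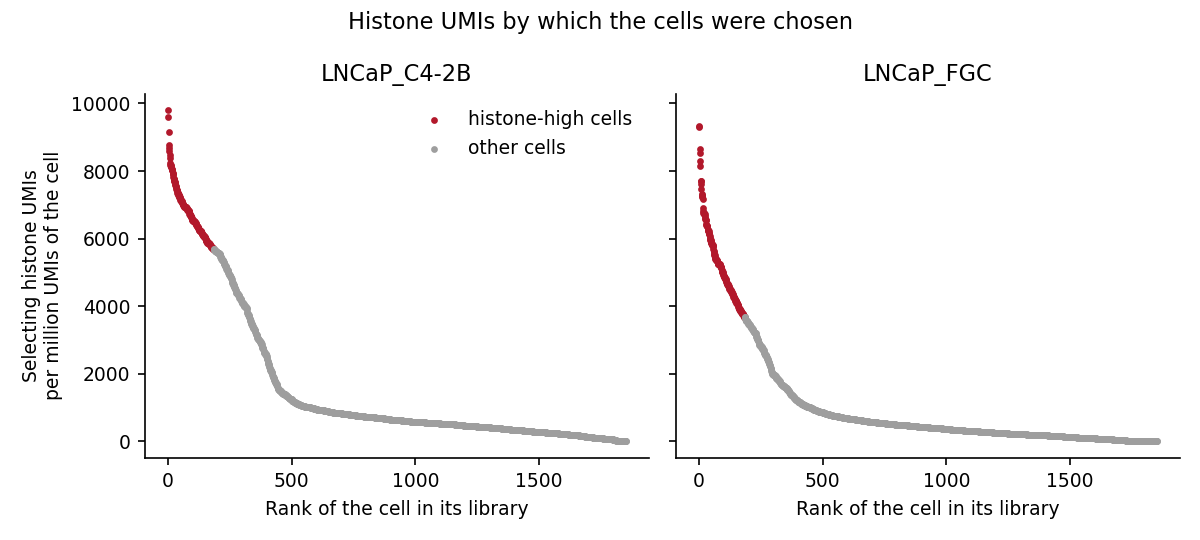
Histone level of each cell as CPM of all its UMIs (y axis) against the rank of the cell in its library (x axis), one panel per line, with histone-high cells in red and other cells in grey. The curve is steep but unbroken at the limit, which lies at 5690 in LNCaP_C4-2B and 3677 in LNCaP_FGC.

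The histone-high cells held more UMIs than the others, with a median of 21417 against 17098 in LNCaP_C4-2B and 20320 against 18064 in LNCaP_FGC. They showed a median of 4698 genes against 4051 in LNCaP_C4-2B and 5214 against 4868 in LNCaP_FGC. With every cell thinned to 8988 UMIs the medians were 2882 and 2801 genes in LNCaP_C4-2B, and 3351 and 3273 in LNCaP_FGC. Mitochondrial transcripts made up a median of 7.93% of UMIs against 8.33% in LNCaP_C4-2B, and 5.47% against 6.14% in LNCaP_FGC. KLK3, which encodes prostate-specific antigen and marks both lines as luminal prostate cells, stood at 2688 CPM against 2788 CPM in LNCaP_C4-2B and at 708.8 CPM against 791.4 CPM in LNCaP_FGC, where CPM now stands for the UMIs of a gene summed over a group of cells and scaled to a common total of the genes outside the HIST group. Of the immune, endothelial and erythroid markers listed, none reached 200 UMIs in either library, and the median of each list's summed level was 0 in histone-high cells and in other cells of both lines.

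None of the histone-high cells was called G1. Phase was called in each library from the S and G2M gene sets of Seurat, without the HIST genes. In LNCaP_C4-2B, 136 cells (73.5%, exact 95% interval 66.5 to 79.7) were called S and 49 (26.5%, 20.3 to 33.5) were called G2M, whereas the other cells were 54.4% G1, 14.6% S and 31.0% G2M. In LNCaP_FGC, 112 cells (60.5%, 53.1 to 67.6) were called S and 73 (39.5%, 32.4 to 46.9) G2M, whereas the other cells were 48.2% G1, 21.3% S and 30.5% G2M. For the count of 0 in G1, the exact 95% interval reaches a share of 1.97% in each line. These limits and all intervals below cover counting error only.

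**Figure D2:**
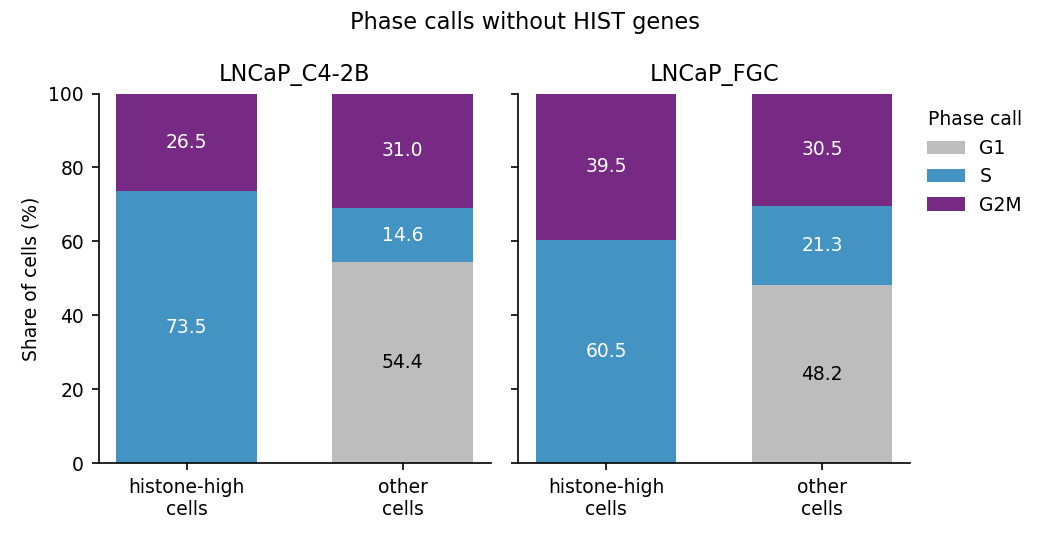
Share of cells in each called phase, in percent (y axis), as stacked bars for histone-high cells and for the other cells of each line. Histone-high cells have no G1 calls in either line, and S calls reach 73.5% in LNCaP_C4-2B and 60.5% in LNCaP_FGC.

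Read from the other side, most cells called S were not histone-high. Of all cells called S, the histone-high ones made up 35.9% in LNCaP_C4-2B and 24.0% in LNCaP_FGC. Of those called G2M they made up 8.67% in LNCaP_C4-2B and 12.6% in LNCaP_FGC, and of the G1-called cells 0 of 906 and 0 of 803. The phase shares moved with how they were scored, since scoring both libraries together gave 55.1% S in the histone-high cells of LNCaP_C4-2B and 62.7% in those of LNCaP_FGC, while G1 calls stayed at 0. Thinning every cell to equal UMIs gave 70.8% S in LNCaP_C4-2B and 61.6% in LNCaP_FGC.

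A gene was compared where it had at least 200 UMIs in the library, and it is called higher or lower where its summed level differed by at least 1.5-fold. In LNCaP_C4-2B, 513 of 9314 genes (5.51%) were higher and 496 (5.33%) lower in histone-high cells than in the others. In LNCaP_FGC, 685 of 10148 genes (6.75%) were higher and 611 (6.02%) lower. Of the 8999 genes compared in both lines, 355 were higher in both, which is 72.2% of those higher in LNCaP_C4-2B and 59.2% of those higher in LNCaP_FGC. A further 144 were lower in both, which is 32.6% of those lower in LNCaP_C4-2B and 32.4% of those lower in LNCaP_FGC. The log2 ratios of the lines had a correlation of 0.69 across all 8999 genes and of 0.83 across the 2637 with at least 50 CPM. This is a description over genes, which are not replicates.

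Genes that license and fire replication origins were nearly all higher. Of the list of such genes, 22 of 24 compared were higher in LNCaP_C4-2B and 24 of 26 in LNCaP_FGC, 21 of them in both, with a median log2 ratio of 1.30 and 1.19, where the median over all genes was 0.00 and -0.01. Their summed level was 2.35-fold higher (2.29 to 2.41) in LNCaP_C4-2B and 2.26-fold higher in LNCaP_FGC. Per cell, the list ran from 843 to 3425 CPM with a median of 1902 in histone-high cells of LNCaP_C4-2B, against 0 to 3329 with a median of 525 in the other cells. In LNCaP_FGC it ran from 1288 to 4313 CPM with a median of 2655 in histone-high cells, against 0 to 4451 with a median of 961. Every histone-high cell of each line lay above the median of the other cells, although the ranges overlapped.

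Within this list, MCM10, which helps to activate the replicative helicase, showed the largest ratio in LNCaP_C4-2B, with 77.5 CPM against 22.1 CPM (3.51-fold, 3.05 to 4.02), and stood at 150.1 CPM against 52.4 CPM in LNCaP_FGC (2.86-fold, 2.60 to 3.16). The helicase subunits MCM2 to MCM7 were all called higher in both lines, with ratios between 1.69-fold for MCM6 and 2.67-fold for MCM4 in LNCaP_C4-2B, and between 2.19-fold for MCM6 and 2.74-fold for MCM7 in LNCaP_FGC. CDC6 and CDT1, which load the helicase onto origins, stood 2.68-fold and 2.78-fold higher in LNCaP_C4-2B and 2.58-fold and 2.33-fold higher in LNCaP_FGC. GMNN, the inhibitor of CDT1 that prevents a further round of licensing, was 2.42-fold and 2.26-fold higher in the same order of lines. ORC2, a subunit of the origin recognition complex, did not reach the limit in either line (1.14-fold and 0.986-fold).

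The replication fork genes, the polymerases, clamp, clamp loader and checkpoint mediators that travel with the fork, were higher in 22 of 26 cases in LNCaP_C4-2B and in 23 of 27 in LNCaP_FGC, with median log2 ratios of 1.13 and 1.26. CLSPN, the adaptor through which the fork signals to CHEK1, stood at 99.4 CPM against 24.9 CPM (4.0-fold, 3.53 to 4.52) in LNCaP_C4-2B and at 196 CPM against 59.7 CPM (3.29-fold, 3.01 to 3.58) in LNCaP_FGC. PCNA, the sliding clamp, stood at 145 CPM against 50.4 CPM (2.88-fold, 2.62 to 3.17) in LNCaP_C4-2B and at 273 CPM against 95.4 CPM (2.86-fold, 2.66 to 3.08) in LNCaP_FGC. FEN1, the flap endonuclease of lagging-strand synthesis, was 3.19-fold higher in LNCaP_C4-2B and 3.21-fold higher in LNCaP_FGC. The exceptions in both lines were POLD2, RPA3 and TOP1, with ratios of 1.13, 1.24 and 0.757 in LNCaP_C4-2B and of 1.14, 1.49 and 0.870 in LNCaP_FGC.

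Among genes of nucleotide supply, enzymes called higher in both lines included RRM2 and RRM1, the subunits of ribonucleotide reductase, as well as TYMS, TK1, DUT, DCK and NUDT1. RRM2 had the largest ratio of them, with 150.2 CPM against 46.8 CPM (3.21-fold, 2.91 to 3.53) in LNCaP_C4-2B and 230.2 CPM against 50.5 CPM (4.56-fold, 4.19 to 4.96) in LNCaP_FGC. The enzymes of purine and CTP synthesis, which serve RNA as well, did not reach the limit, with ratios of 1.05 for PAICS, 1.19 for GART, 0.888 for ATIC and 1.46 for CTPS1 in LNCaP_C4-2B, and 1.23, 1.26, 1.04 and 1.43 in LNCaP_FGC. Neither did DCTPP1, a pyrophosphatase of deoxynucleotides, at 1.17 in LNCaP_C4-2B and 1.32 in LNCaP_FGC.

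Genes that act on histone transcripts themselves were higher in part. Of those for histone transcription and 3′ end processing, 5 of 11 were higher in LNCaP_C4-2B and 7 of 13 in LNCaP_FGC, and CDK2, ERI1 and NPAT were higher in both. NPAT, the coactivator that CDK2 phosphorylates at histone loci, stood at 29.2 CPM against 13.1 CPM in LNCaP_C4-2B and at 42.4 CPM against 23.5 CPM in LNCaP_FGC. SLBP, which binds the stem-loop and accompanies histone transcripts into translation, stood at 128 CPM against 63.7 CPM (2.02-fold, 1.83 to 2.22) in LNCaP_C4-2B, and at 128 CPM against 91.2 CPM (1.40-fold, 1.27 to 1.54) in LNCaP_FGC, where it did not reach the limit. The general cleavage factors were nearer to the other cells, CPSF2 at a ratio of 0.957 in LNCaP_C4-2B and 1.15 in LNCaP_FGC.

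Among the chaperones that receive newly made histones, 8 of 15 were higher in each line and these were the same 8: ASF1B, CHAF1A, CHAF1B, DNAJC9, HAT1, MMS22L, NASP and TONSL. ASF1B, which hands H3-H4 dimers to the assembly factor CAF-1, had the largest ratio, 3.10-fold (2.51 to 3.82) in LNCaP_C4-2B and 3.18-fold (2.72 to 3.70) in LNCaP_FGC, whereas its paralog ASF1A stood at 1.21 and 1.02. HIRA, the chaperone of replication-independent deposition, stood at 0.711 in LNCaP_C4-2B and 1.15 in LNCaP_FGC, with intervals that included 1. Of the histone variants outside the replication clusters, H2AFX, whose transcript can end in either form, was higher in both lines, at 191 CPM against 83.6 CPM in LNCaP_C4-2B and 310 CPM against 127 CPM in LNCaP_FGC.

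Proteins that copy chromatin marks and hold sister chromatids together showed the same direction. DNMT1, the maintenance DNA methyltransferase, stood at 347 CPM against 141 CPM in LNCaP_C4-2B and 467 CPM against 180 CPM in LNCaP_FGC, and its partner UHRF1 was 3.17-fold higher in LNCaP_C4-2B and 1.88-fold higher in LNCaP_FGC. ATAD2, a bromodomain ATPase of replicating chromatin, was among the most abundant of these genes, at 377 CPM against 128 CPM (2.94-fold, 2.77 to 3.12) in LNCaP_C4-2B and 499 CPM against 158 CPM (3.17-fold, 3.0 to 3.34) in LNCaP_FGC. In the cohesion list, 7 of 13 genes were higher in LNCaP_C4-2B and 9 of 13 in LNCaP_FGC. ESCO2, which acetylates cohesin at the fork, stood at 89.3 CPM against 25.2 CPM (3.55-fold, 3.12 to 4.02) in LNCaP_C4-2B and 169 CPM against 39.3 CPM (4.31-fold, 3.91 to 4.75) in LNCaP_FGC. CDCA5, the cohesin-protecting sororin, was 3.05-fold and 3.45-fold higher, whereas the cohesin release factor WAPL stood at 1.16 and 1.11.

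Genes of homologous recombination and fork protection were higher in 21 of 25 cases in each line, 20 of them in both, with median log2 ratios of 1.17 and 1.25. BRCA1 stood at 133 CPM against 46.6 CPM (2.85-fold, 2.58 to 3.15) in LNCaP_C4-2B and 188 CPM against 62.0 CPM (3.03-fold, 2.77 to 3.30) in LNCaP_FGC. Its partner BARD1 did not reach the limit (1.47-fold and 1.25-fold). The checkpoint kinase CHEK1 was 2.66-fold higher in LNCaP_C4-2B and 2.55-fold higher in LNCaP_FGC, while ATR, the kinase upstream of it, stood at 1.22 and 1.29 and ATM, the kinase of double-strand breaks, at 1.10 and 1.37. FAM111B, a protease of the replication period, had the largest ratio among genes of at least 50 CPM in LNCaP_C4-2B, 81.0 CPM against 19.8 CPM (4.10-fold, 3.57 to 4.70), and stood at 217 CPM against 67.2 CPM (3.23-fold, 2.97 to 3.51) in LNCaP_FGC.

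Among regulators of the G1/S transition, 8 were higher in both lines: CCNE2, CDC25A, CDK2, E2F1, E2F7, E2F8, RBL1 and SKP2. The repressor E2F7, which shuts off E2F targets late in S phase, stood at 25.9 CPM against 7.04 CPM (3.68-fold, 2.88 to 4.67) in LNCaP_C4-2B and 51.1 CPM against 10.4 CPM (4.92-fold, 4.08 to 5.90) in LNCaP_FGC. The E-type cyclins did not move together. CCNE2 was 4.14-fold higher in LNCaP_C4-2B and 2.25-fold higher in LNCaP_FGC. CCNE1 stood at 5.28 CPM against 8.59 CPM in LNCaP_C4-2B, where it was called lower, although on few UMIs. In LNCaP_FGC it stood at 25.4 CPM against 21.8 CPM. CCND1, the cyclin of G1 entry, stood at 219 CPM against 326 CPM in LNCaP_C4-2B and 159 CPM against 264 CPM in LNCaP_FGC, where it was called lower.

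Promoters of the genes higher in both lines were searched for the letters of E2F sites and of the CHR element, through which DREAM and B-MYB act. Promoters here are the 250 bases before to 50 after the start of a gene in RefSeq on GRCh38.p14, found for 292 of the 355 genes and 7209 of the 8999. The E2F letters searched, TTTCCCGC, TTTCGCGC, TTTGCCGC or TTTGGCGC on either strand, were in 66 of 292 (22.6%) against 445 of 7209 (6.17%). The CHR letters, TTTGAA or TTCGAA on either strand, were in 77 (26.4%) against 764 (10.6%). The counts by list cover all members compared in both lines with a promoter found, whether called or not. E2F letters were in 11 of 20 licensing, 8 of 22 fork, 2 of 20 G2 and 0 of 25 mitotic promoters. CHR letters were in 2, 0, 14 and 17 of them, in that order. Other replication lists varied. Nucleotide supply had 2 E2F and 2 CHR matches in 13 promoters, cohesion 2 and 3 in 10, and recombination 4 and 2 in 22. G1/S regulators had 4 and 1 in 9, and histone transcription and 3′ end processing 3 and 1 in 9. Chromatin maintenance had 5 and 3 in 10, and histone chaperones 2 and 1 in 14. A match is a stretch of letters and not a measured binding site. The stretches below show both kinds of match, first E2F letters of replication genes that were higher in both lines and then CHR letters of mitotic genes, with the matched letters in capitals and each written 5′ to 3′ on the strand of its gene.
PCNA, chr20:5126648-5126707, minus strand: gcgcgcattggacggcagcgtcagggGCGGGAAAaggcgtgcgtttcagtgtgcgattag
MCM3, chr6:52284883-52284942, minus strand: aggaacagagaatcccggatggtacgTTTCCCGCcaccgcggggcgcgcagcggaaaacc
CDT1, chr16:88803728-88803787, plus strand: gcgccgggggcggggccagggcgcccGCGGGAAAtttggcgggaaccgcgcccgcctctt
CDC20, chr1:43358890-43358947, plus strand: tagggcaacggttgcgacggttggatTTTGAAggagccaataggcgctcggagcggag
PLK1, chr16:23678834-23678888, plus strand: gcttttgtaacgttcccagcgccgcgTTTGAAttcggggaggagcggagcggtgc
KIF23, chr15:69414268-69414325, plus strand: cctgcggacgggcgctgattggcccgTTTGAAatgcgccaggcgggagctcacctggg
All 3 mitotic stretches hold the same CHR letters. KIF23 had log2 ratios of 0.79 in LNCaP_C4-2B and 1.72 in LNCaP_FGC. The values of CDC20 and PLK1 are given with the mitotic genes below. Whether these letters bear on the levels in histone-high cells was not tested.

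The mitotic genes differed between the lines. In LNCaP_C4-2B, 6 of 30 were higher and 4 lower, with a summed ratio of 0.979 (0.959 to 0.999) whose log2 value lay between -0.15 and 0.09 over the alternatives, on both sides of 0, whereas in LNCaP_FGC 20 of 30 were higher and 0 lower, with a summed ratio of 1.61. ANLN, AURKB, CDC25C, KIF23, NDC80 and UBE2C were higher in both lines. AURKB, the kinase of the chromosomal passenger complex, stood at 77.7 CPM against 33.8 CPM in LNCaP_C4-2B and 57.2 CPM against 16.1 CPM in LNCaP_FGC. The 4 genes called lower in LNCaP_C4-2B act around mitotic entry and exit. CCNB1, the cyclin that activates CDK1 at mitosis, stood at 74.7 CPM against 202.0 CPM (2.70-fold lower, 2.41 to 3.05) there, and at 184 CPM against 253 CPM in LNCaP_FGC (1.37-fold lower), which did not reach the limit. CDC20, the activator of the anaphase-promoting complex, stood at 36.5 CPM against 84.4 CPM in LNCaP_C4-2B and 61.0 CPM against 59.6 CPM in LNCaP_FGC. PLK1, a mitotic kinase, had log2 ratios of -0.94 and 0.16, and PTTG1, the securin, of -0.78 and 0.14. No test of the difference between the lines can be made with 1 library of each, and the share of histone-high cells called G2M was 26.5% in LNCaP_C4-2B and 39.5% in LNCaP_FGC, an order that turned when both libraries were scored together (44.9% and 37.3%).

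Genes of G2, before mitosis, were higher in both lines, in 17 of 22 cases in LNCaP_C4-2B and 20 of 22 in LNCaP_FGC, the 17 being among the 20. CDK1 stood at 320.2 CPM against 129 CPM (2.48-fold, 2.32 to 2.64) in LNCaP_C4-2B and 1211 CPM against 357 CPM (3.40-fold, 3.28 to 3.52) in LNCaP_FGC. TOP2A, which untangles sister chromatids, stood at 174 CPM against 100 CPM in LNCaP_C4-2B and 631 CPM against 231 CPM in LNCaP_FGC. CKS2, a small CDK partner, was called lower in LNCaP_C4-2B (1.65-fold lower, with 167 CPM against 276 CPM) and stood at 165 CPM against 139 CPM in LNCaP_FGC, while its paralog CKS1B was higher in both (1.65-fold and 1.79-fold). FBXO5, the inhibitor that keeps the anaphase-promoting complex off through S and G2, stood at 50.1 CPM against 17.2 CPM in LNCaP_C4-2B and 82.0 CPM against 22.3 CPM in LNCaP_FGC.

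**Figure D3:**
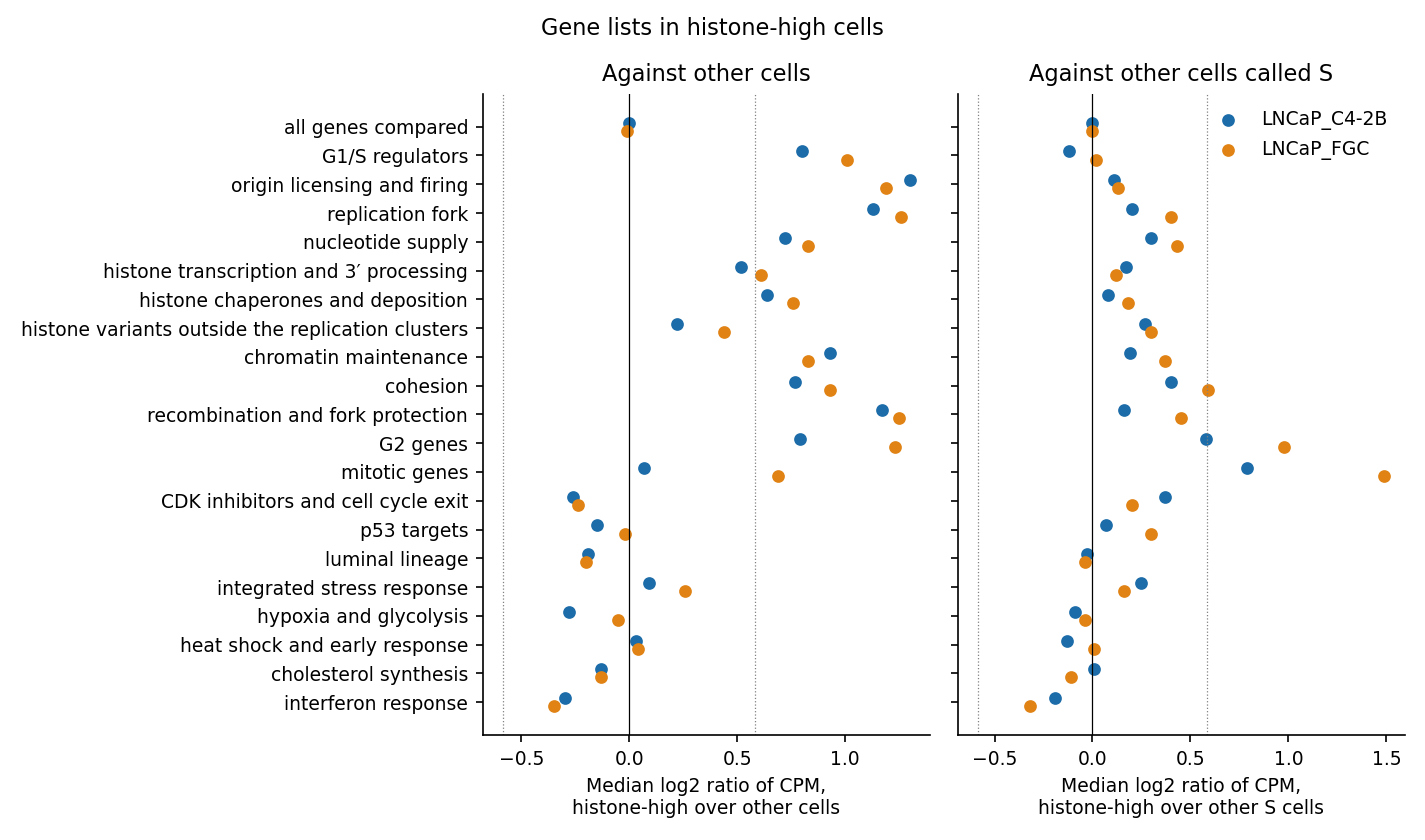
Median log2 ratio of gene lists (x axis) in histone-high cells over the other cells and over the other cells called S. Lists run down the page, with 1 panel per comparison and 1 colour per line. The androgen receptor list and the fibroblast, immune, endothelial and erythroid, basal and neuroendocrine marker lists are not plotted. Dotted lines mark the 1.5-fold limit. Replication lists lie to the right against the other cells (1.30 and 1.19 for licensing). Against the other S cells they lie lower, at 0.11 and 0.13 for licensing and 0.20 and 0.40 for fork genes, where the mitotic list lies at 0.79 and 1.49. The other S cells hold no G2M-called cells, whereas the histone-high cells do, which in part sets the place of the mitotic list.

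A further comparison was made with the cells called S that were not histone-high, 243 in LNCaP_C4-2B and 354 in LNCaP_FGC. The phase calls use genes that the lists also hold, 20 of the 30 mitotic, 13 of the 22 G2 and 8 of the 27 licensing genes, and the histone-high set here includes its G2M-called cells. In LNCaP_C4-2B, 286 genes (3.07%) were higher and 336 (3.61%) lower than in the other S cells. In LNCaP_FGC, 441 (4.35%) were higher and 460 (4.53%) lower, and 100 genes were higher in both. Licensing genes were close to the other S cells, with 0 of 24 higher and 1 lower (MCM6) in LNCaP_C4-2B and 4 of 26 higher in LNCaP_FGC. Of the other replication lists, 0 of 26 fork, 0 of 14 nucleotide supply, 0 of 25 recombination and 2 of 13 cohesion genes were higher in LNCaP_C4-2B. In LNCaP_FGC 7 of 27, 4 of 14, 9 of 25 and 7 of 13 were higher, with median log2 ratios of 0.40, 0.43, 0.45 and 0.59. Of the G1/S regulators, 0 of 14 were higher and 3 lower in LNCaP_C4-2B, and 2 of 14 higher and 3 lower in LNCaP_FGC. CCNE1 stood at 5.28 CPM against 13.9 CPM in LNCaP_C4-2B (2.62-fold lower, again on few UMIs). In LNCaP_FGC it stood at 25.4 CPM against 44.8 CPM (1.76-fold lower). CDC25A, a phosphatase that activates CDK2, was also called lower in both lines.

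Genes of later phases were higher in the histone-high cells than in the other S cells. This follows in part from how the groups were built, since G2M-called cells were left out of the other S cells but kept among the histone-high cells. Of the mitotic list 21 of 30 were higher in LNCaP_C4-2B and 27 of 30 in LNCaP_FGC, with all 21 shared, and of the G2 list 11 of 22 and 20 of 22. AURKA, a kinase of spindle assembly, stood at 73.2 CPM against 30.0 CPM (2.44-fold) in LNCaP_C4-2B and 54.7 CPM against 24.5 CPM (2.24-fold) in LNCaP_FGC. TOP2A was 2.02-fold higher in LNCaP_C4-2B and 4.10-fold higher in LNCaP_FGC, and KIF2C, a microtubule depolymerase of the centromere, 1.98-fold and 4.70-fold. CDKN2D, an inhibitor of CDK4 and CDK6, was 2.10-fold higher in LNCaP_C4-2B and 4.47-fold higher in LNCaP_FGC. It was also higher than in all other cells, at 59.9 CPM against 25.1 CPM in LNCaP_C4-2B and 39.4 CPM against 12.4 CPM in LNCaP_FGC.

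Within a called phase the lists were compared as sums. Among cells called S alone, the histone-high ones had 1.32-fold (1.28 to 1.36) the level of mitotic genes of the others in LNCaP_C4-2B and 1.80-fold (1.74 to 1.86) in LNCaP_FGC, with G2 genes at 1.39-fold and 1.94-fold and licensing genes at 1.12-fold and 1.26-fold. Among cells called G2M the mitotic list was lower in the histone-high ones, at 0.655-fold (0.634 to 0.677) in LNCaP_C4-2B and 0.869-fold (0.848 to 0.890) in LNCaP_FGC, and the licensing list higher, at 1.47-fold and 1.61-fold. CCNB1 stood at 0.327-fold and 0.424-fold and CDC20 at 0.318-fold and 0.597-fold in these G2M-called cells, while MCM10 stood at 2.77-fold and 2.28-fold and FBXO5 at 2.55-fold and 2.82-fold. The comparison within G2M was added after the data had been seen. The summed level of the mitotic genes was thus intermediate, at 2115 CPM in S-called and 3834 CPM in G2M-called histone-high cells of LNCaP_C4-2B, against 1605 CPM in the other S cells and 5852 CPM in the other G2M cells. In LNCaP_FGC it was 2595 CPM and 4666 CPM in the histone-high cells, against 1442 CPM and 5370 CPM in the others.

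The histone-high cells also varied among themselves by phase. Those called S had 0.552-fold the mitotic level of those called G2M in LNCaP_C4-2B and 0.556-fold in LNCaP_FGC. CCNE2 was 11.4-fold (4.78 to 35.5) higher in the S-called ones in LNCaP_C4-2B and 2.13-fold higher in LNCaP_FGC, FAM111B 4.85-fold and 2.01-fold, and SLBP 2.03-fold and 2.27-fold. The phase calls use 20 of the 30 mitotic genes as well as CCNE2 and SLBP, so these differences follow in part from the calls. The upper 93 cells by histone level had 0.978-fold the licensing level of the lower 92 in LNCaP_C4-2B and 1.04-fold in LNCaP_FGC.

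Along the whole range of the histone level, the cells of each library were placed in 10 groups of equal size, of which the histone-high cells are the highest. The share called S was 1.62% in the lowest group, 27.6% in the eighth, 69.2% in the ninth and 73.5% in the highest of LNCaP_C4-2B, and 0.541%, 47.6%, 54.1% and 60.5% in LNCaP_FGC. Licensing genes relative to the whole library stood at 0.61 in the lowest group, 1.88 in the ninth and 2.04 in the highest in LNCaP_C4-2B, and at 0.34, 1.60 and 2.00 in LNCaP_FGC. Mitotic genes took another course in LNCaP_C4-2B, where they were highest in the eighth group at 1.39 and stood at 1.13 in the lowest and 0.98 in the highest, whereas in LNCaP_FGC they stood at 0.43 in the lowest and 1.52 in the highest. In replication genes the histone-high cells were close to the group just under the limit, and the lower 92 of them had 1.10-fold the summed level of origin licensing and firing genes of the group just under the limit in LNCaP_C4-2B and 1.22-fold in LNCaP_FGC. KDM5B, a histone demethylase, stood at 0.374 of its library level in the highest group of LNCaP_C4-2B and 0.400 in that of LNCaP_FGC. CCNB1 stood at 0.40 and 0.75 in the highest groups, and CCNE2 at 3.05 and 1.99.

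**Figure D4:**
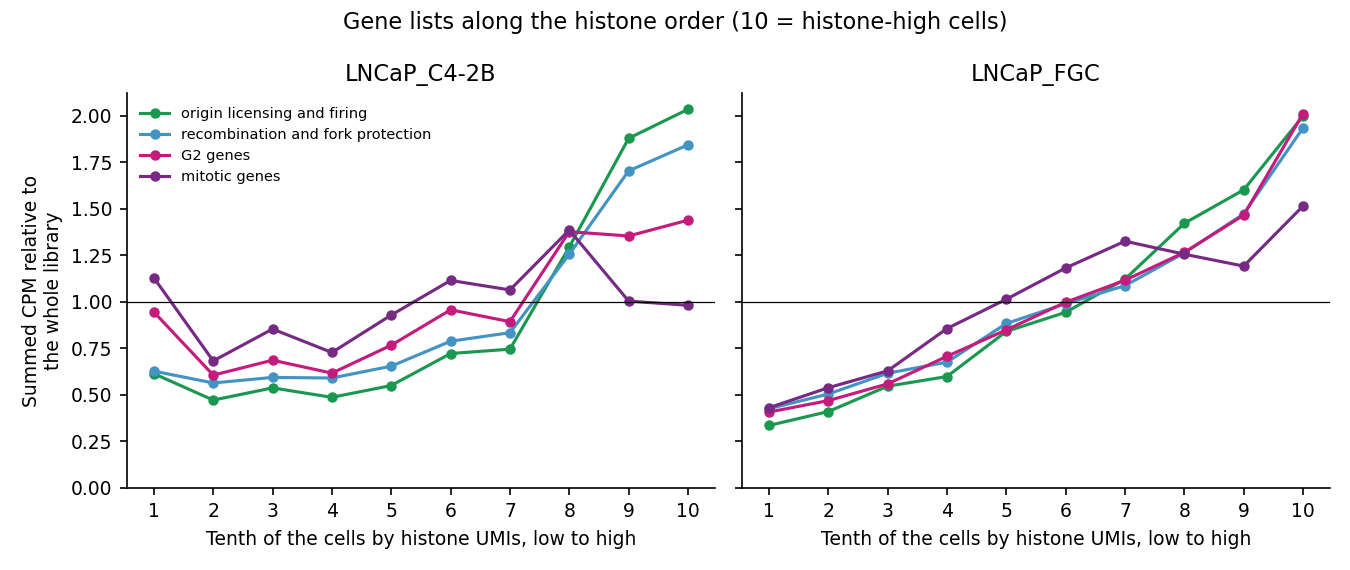
Level of gene lists relative to the whole library (y axis) in 10 groups of equal size ordered from the lowest to the highest histone level (x axis), one panel per line. Licensing genes reach 2.04 in LNCaP_C4-2B and 2.00 in LNCaP_FGC in the highest group, while the mitotic list peaks at 1.39 in the eighth group of LNCaP_C4-2B.

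Of the list of the androgen receptor and its targets, 8 of 22 genes compared were lower and 1 higher in LNCaP_C4-2B. In LNCaP_FGC 6 of 24 were lower and 2 higher. Over all genes compared, 5.33% were lower in LNCaP_C4-2B and 6.02% in LNCaP_FGC, and 5.51% and 6.75% were higher. TMPRSS2, PMEPA1, ALDH1A3 and MAF were called lower in both lines, and FKBP5 was the 1 gene called higher in both. TMPRSS2, an androgen-induced serine protease, stood at 71.4 CPM against 156.7 CPM (2.19-fold lower) in LNCaP_C4-2B. In LNCaP_FGC it stood at 38.8 CPM against 127 CPM (3.28-fold lower, 2.77 to 3.91). TMPRSS2 was lower than in the other S cells as well (1.81-fold and 2.28-fold), the 1 list member called lower in both lines there. In that comparison 5 of 22 list genes were lower in LNCaP_C4-2B and 3 of 24 in LNCaP_FGC, against 3.61% and 4.53% of all genes. FKBP5, a co-chaperone that androgen also induces, was higher than in all other cells. It stood at 310 CPM against 202 CPM in LNCaP_C4-2B and 260 CPM against 159 CPM in LNCaP_FGC. ETV1, the ETS factor rearranged in LNCaP, was listed with 0 UMIs in LNCaP_C4-2B and stood at 145 CPM against 156 CPM in LNCaP_FGC (ratio 0.932, 0.851 to 1.02).

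KDM5B, a demethylase of histone H3 lysine 4, had the lowest ratio among genes of at least 50 CPM in LNCaP_C4-2B, at 25.2 CPM against 72.7 CPM (2.89-fold lower, 2.37 to 3.57), and stood at 35.3 CPM against 94.2 CPM (2.67-fold lower, 2.24 to 3.21) in LNCaP_FGC. BTG1, an antiproliferative factor of resting cells, stood at 175 CPM against 452 CPM in LNCaP_C4-2B and 189 CPM against 321 CPM in LNCaP_FGC. ADAMTS1, a secreted metalloprotease, was 2.10-fold and 2.40-fold lower, KCNN2, a calcium-activated potassium channel, 2.43-fold and 2.11-fold lower, and NEAT1, the noncoding RNA of paraspeckles, 2.10-fold and 1.57-fold lower. MT1X, a metallothionein, was called lower in LNCaP_C4-2B alone, with 81.5 CPM against 202.5 CPM in LNCaP_C4-2B and 260 CPM against 263 CPM in LNCaP_FGC. MXD4, a MAX partner that opposes MYC, was 1.14-fold lower in LNCaP_C4-2B, short of the limit, and 2.13-fold lower in LNCaP_FGC. SYT4, a synaptic vesicle protein, stood at 1.01 CPM against 12 CPM in LNCaP_C4-2B, on 4 UMIs in the histone-high cells (ratio 0.0841, 0.0228 to 0.217), and at 41.3 CPM against 96.7 CPM in LNCaP_FGC.

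Of the neuroendocrine markers, 2 of 3 compared were lower in LNCaP_C4-2B and 1 of 2 in LNCaP_FGC (median log2 ratios -0.65 and -0.61), and of the basal markers 0 of 2 in each line (-0.47 and 0.19). Of the CDK inhibitors and genes of cell cycle exit, CDKN2C and CDKN2D, both inhibitors of CDK4 and CDK6, were higher in both lines, whereas BTG1 and PNRC1 were lower in both. Of the p53 targets, DDB2, which recognises ultraviolet damage, was 1.97-fold higher in LNCaP_C4-2B and 2.30-fold higher in LNCaP_FGC, PPM1D 1.54-fold and 1.88-fold higher, and TP53INP1 1.63-fold and 1.95-fold lower. In the integrated stress response list, 2 of 16 genes were higher in LNCaP_C4-2B and 3 of 12 in LNCaP_FGC, against 5.51% and 6.75% of all genes. SLC7A11, the cystine transporter, stood at 98.1 CPM against 89.9 CPM in LNCaP_C4-2B and at 99.5 CPM against 45.4 CPM in LNCaP_FGC. PHGDH and PSAT1 of serine synthesis were also called higher in LNCaP_FGC. Against the other S cells, 1 of 16 list genes was higher and 0 lower in LNCaP_C4-2B, and 1 of 12 higher and 1 lower in LNCaP_FGC. Against all other cells, the hypoxia list had 0 of 22 genes higher and 2 lower in LNCaP_C4-2B. In LNCaP_FGC it had 0 of 21 higher and 2 lower. Its summed ratio was 0.904 in LNCaP_C4-2B and 1.07 in LNCaP_FGC, where NDRG1 was 2.08-fold lower. Of the luminal lineage genes, 0 of 17 were higher and 1 lower in LNCaP_C4-2B, and 0 of 16 higher and 1 lower in LNCaP_FGC. Their median log2 ratios were -0.19 and -0.20. Over all genes compared, 5.33% were lower in LNCaP_C4-2B and 6.02% in LNCaP_FGC, so the luminal count lay near that share. PAGE1, a cancer-testis antigen of LNCaP_C4-2B, stood at 877.5 CPM against 883.7 CPM there, and TMEFF2, a transmembrane protein of the prostate, at 130.2 CPM against 168 CPM in LNCaP_FGC. Heat shock genes (median log2 ratio 0.03 and 0.04) and cholesterol synthesis genes (-0.13 in both) lay near the median of all genes. As sums, the heat shock list stood at 1.06-fold in LNCaP_C4-2B and 1.21-fold (1.2 to 1.23) in LNCaP_FGC. The cholesterol list stood at 0.959-fold and 0.952-fold.

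**Figure D5:**
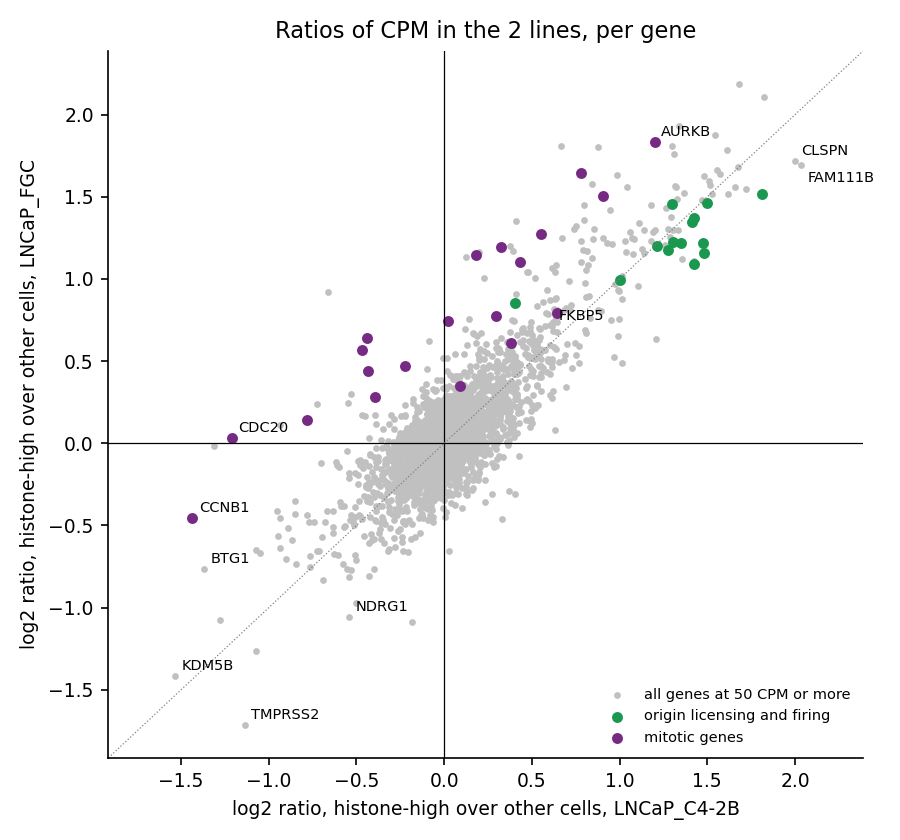
Log2 ratio of histone-high over other cells in LNCaP_C4-2B (x axis) and in LNCaP_FGC (y axis) for genes with at least 50 CPM, with the licensing and mitotic lists coloured. Licensing genes lie at the upper right, with DBF4 (0.40 and 0.85) the lowest of them, mitotic genes lie above the diagonal, and the correlation over the 2637 genes is 0.83.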

How the data were processed

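The matrices deposited by the authors hold UMI counts. The authors worked with Cell Ranger 6.0 and Seurat 5.011 on GRCh38, per the submitters' processing notes. They filtered cells on gene and read numbers, on hemoglobin, ribosomal and mitochondrial percentages and on a doublet score, sampled 1850 cells from each line, and thinned counts so that both lines had 1 mean depth, whose original value was not analysed here. Cells past the authors' limit on the doublet score were thus removed before deposit. No caller was run here, so doublets that passed that limit were not assessed.

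Each library was analysed alone. UMIs were summed over groups of cells, scaled to CPM without genes starting with HIST, and compared as ratios with exact conditional 95% intervals, for genes with at least 200 UMIs. Shares have exact binomial (Clopper-Pearson) intervals. Genes are known by symbol only, and overlapping genes or near-identical copies cannot be told apart. The genes named were, per line, the 15 highest and 12 lowest ratios among genes of at least 50 CPM, up to 4 at each end of the lists (26 in all) among those of at least 20 CPM, any list member called in both lines, the 10 highest and lowest against the other S cells, and ETV1, KLK3, PAGE1 and TMEFF2. CTPS1 and HIRA, also list members, were named after their values were seen. A few list members are not reported here. The members and the gene lists were chosen with earlier results of these data known. Alternatives changed the UMI minimum, the scaling depth, the number of cells, the histone genes and the phase scoring. Steps were tested on simulated data. Tools were Python 3.11.15, numpy 2.4.6, scipy 1.17.1, pandas 2.3.3, matplotlib 3.10.9, R 4.3.3 and Seurat 5.3.0.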

Additional observations from a re-analysis of the deposited data

Results flagged for a closer look

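Of the genes compared with all other cells, 2 were called in opposite directions in the lines, and the difference between the lines was not tested. DEPDC1, a gene of mitotic progression, had a log2 ratio of -0.66 in LNCaP_C4-2B, with 49.1 CPM in histone-high cells against 77.7 CPM in the others, and of 0.92 in LNCaP_FGC, with 193.9 CPM against 102.2 CPM. NME5, a gene of motile cilia, had a log2 ratio of -0.83 in LNCaP_C4-2B (3.77 CPM against 6.72 CPM) and of 0.60 in LNCaP_FGC (11.8 CPM against 7.76 CPM), resting on 15 and 43 UMIs in the histone-high cells.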

How the results depend on the processing

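No paired analysis was possible because each line has 1 library. No gene named and called against all other cells changed direction. Single genes were not rerun against the other S cells. The summed log2 ratio of some lists near 0 changed sign, from -0.15 to 0.09 for mitotic genes in LNCaP_C4-2B, -0.10 to 0.19 for p53 targets in LNCaP_FGC, -0.46 to 0.28 for fibroblast markers in LNCaP_FGC and -2.17 to 0.54 for immune cell markers in LNCaP_C4-2B. With a minimum of 50 UMIs the genes called in LNCaP_C4-2B were 830 higher and 1197 lower than in the other cells and 760 and 990 than in the other S cells, and in LNCaP_FGC 1315 lower than in the other cells and 900 higher and 1119 lower than in the other S cells. With a minimum of 1000 UMIs they were 162, 83, 65 and 37 in LNCaP_C4-2B and 282, 143, 139 and 65 in LNCaP_FGC, in that order. Fewer genes enter at the higher minimum. With cells thinned to equal UMIs they were 774, 808, 629 and 733 in LNCaP_C4-2B, with 917 lower than in the other cells and 745 lower than in the other S cells in LNCaP_FGC. Taking the top 93 cells gave 541 lower than in the other S cells in LNCaP_C4-2B, and 951 and 747 lower in LNCaP_FGC. Taking 370 cells gave 314 lower than in the other cells and 754 higher than in the other S cells in LNCaP_C4-2B, and 315 and 250 lower in LNCaP_FGC. One histone limit for both libraries, chosen after seeing the data, left 59 cells in LNCaP_FGC and gave 1201 and 1002 lower. The S share in LNCaP_C4-2B was 81.1% without HIST1H4C in the rule and 55.1% with joint scoring. The cause of these shifts was not tested beyond the number of genes or cells. Of the named genes called against all other cells, 150 of 177 in LNCaP_C4-2B and 166 of 193 in LNCaP_FGC stayed past the limit in every alternative run.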
